A study of Homo sapiens with 8 samples.

Results

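G401 is a cell line from a rhabdoid tumor of the kidney that has lost SMARCB1, a core subunit of the mSWI/SNF chromatin remodelling complexes. The study compared derivatives of this line that carry SMARCB1 or GFP under a doxycycline-inducible "TET on" promoter. The results below set the SMARCB1 line against the GFP line without induction, both in DMSO for 12 h. These are 4 of the 8 ribosome profiling libraries, with 2 replicates of SMARCB1 DMSO and 2 of GFP DMSO, chosen by their labels. In the remaining 4 libraries the same lines received 0.1 μg/ml doxycycline (Dox) for 12 h, which induces SMARCB1 or GFP. Each transgene was represented by 1 line, so the transgene and the derivation of the line cannot be told apart. Nothing in the labels says that the replicates are independent derivations, and the p-values measure the spread between these libraries.

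Ribosome profiling sequences the mRNA fragments that translating ribosomes protect, and the number of fragments on a coding sequence follows both the amount of an mRNA and its translation. No RNA-seq data were used here, and these contributions cannot be told apart. In bulk samples, fewer cells of a type and less RNA per cell cannot be told apart either. mSWI/SNF complexes move nucleosomes at promoters and enhancers, and the extracellular matrix, the guidance molecules and the developmental transcription factors examined below are products that tell mesenchymal, epithelial and neural cells apart.

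The DMSO libraries held 5924443 and 13700539 counts on genes for the SMARCB1 line and 12001296 and 14000039 for the GFP line. SMARCB1 (chromosome 22 of GRCh38, 23786931 to 23838009) had 0 counts in all 4 of them. SMARCB1 DMSO replicate 1 was the shallowest library and also had the highest share of uniquely aligned reads outside coding sequences, 45.9% against 36.6% to 40.8% in the other 3. Log2 CPM (CPM, counts scaled to the same library total) correlated at 0.973 between the SMARCB1 DMSO replicates, at 0.989 between the GFP DMSO replicates and at 0.940 to 0.946 between the lines. Both lines had many footprints on VIM, KRT8 and KRT18, the intermediate filament genes that rhabdoid tumor cells are known to express together. VIM had 14791 and 43432 counts in the SMARCB1 libraries and 18026 and 23347 in those of the GFP line. None of the 3 genes was called. Of 15 epithelial markers, which include KRT8 and KRT18, 5 passed the filter on low counts and 0 were called. The epithelial genes CDH1 and EPCAM had at most 2 and 11 counts in a library. Of the markers of other cells, 0 of 11 endothelial genes passed the filter on low counts, with at most 9 counts in a library. Of 15 blood markers 11 were at 0 in all 4 libraries, PTPRC among them, and 1 passed the filter, CD68, with 95 to 450 counts. Of 15 neural markers 9 were at 0 and 3 passed, and the highest was NES with 1636 to 5473 counts, which was not called. Of 12 skeletal muscle markers 5 were at 0, MYOD1 among them, and 2 passed, MYH3 with 25 to 53 counts and MYH8, which was called (see the muscle genes). Of the kidney markers, SIX2, PAX8 and WT1 had 0 counts. Of the 19 nephron and tubule markers 11 were at 0 in every DMSO library, and PAX2 was the one that was called (see the transcription factors). Of 11 mesenchymal markers, which include VIM, 4 passed the filter, and NT5E was called higher and S100A4 lower in the SMARCB1 line. CDH2, a mesenchymal cadherin, and TWIST1 were at 0, and CD44 and FN1 had at most 1 count.

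Of the 11097 genes with enough counts to test, 552 (4.97%) differed between the lines under DMSO. A gene was called when its adjusted p-value was below 0.05 and its fold change above 2, by edgeR's quasi-likelihood test, whose p-values were adjusted over all genes after Benjamini and Hochberg here and throughout. The calls were evenly split, with 276 higher (2.49%) and 276 lower (2.49%) in the SMARCB1 line. Their sizes were large, since 358 differed by over 4-fold and 97 by over 32-fold, with genes at 0 in a line set to the smallest fold that 3 counts allow. The median absolute log2 difference of the calls was 2.72, whereas the median log2 difference of all genes tested was 0.02. In all 552 genes the 2 libraries of one line lay beyond both libraries of the other, which held for 44.8% of the genes tested. The count depends on the replicates and fell to 299 without GFP DMSO replicate 2 and to 324 without GFP DMSO replicate 1. It was 438 without SMARCB1 DMSO replicate 1 and 378 without replicate 2.

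**Figure D1:**
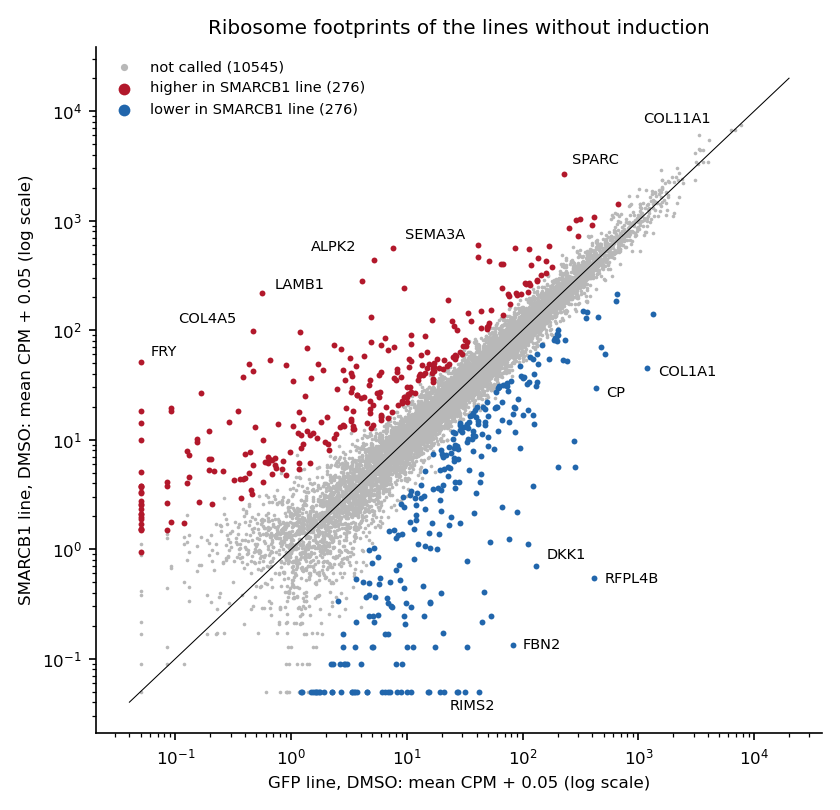
Mean CPM of the 2 GFP DMSO libraries (x axis) against that of the 2 SMARCB1 DMSO libraries (y axis), both plus 0.05 on log scales, for the 11097 genes tested. The 276 genes called higher in the SMARCB1 line (red) and the 276 called lower (blue) spread on both sides of the line of equal levels, and genes at 0 in a line lie on the lowest row or the leftmost column.

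Among genes with more footprints in the SMARCB1 line, ALPK2 had the smallest p-value. This alpha-kinase gene on chromosome 18 (58481247 to 58629091) had 2817 and 5306 counts in the SMARCB1 libraries and 58 and 79 in those of the GFP line. This is 441 ± 39.9 CPM against 5.13 ± 0.506 CPM (SD, n = 2 each), a log2 difference of 6.42 (standard error 0.29, adjusted p = 1.28e-08). NT5E, which encodes the ectonucleotidase CD73, had 330 and 667 counts against 8 and 8 (log2 difference 6.44, standard error 0.36). PAG1, an adaptor of membrane rafts, had 1664 and 2622 counts against 124 and 121. ADGRG6, an adhesion-type G protein-coupled receptor, had 2335 and 2183 counts against 43 and 66, so that its 2 SMARCB1 libraries differed widely for their depths (280 ± 155 CPM). The neurofilament gene NEFH had 233 and 595 counts against 5 and 6, and the dystrophin relative UTRN had 443 and 1064 against 57 and 72. FRY had 355 and 554 counts in the SMARCB1 line and 0 in both GFP libraries. The libraries of the lines did not overlap for any of these genes, which was a condition for naming them and held for every called gene.

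The strongest gene in the other direction was RFPL4B, a RING-finger gene on chromosome 6 (112347330 to 112351294). It had 4 and 4 counts in the SMARCB1 libraries and 4998 and 5989 in those of the GFP line, or 0.489 ± 0.251 CPM against 413 ± 3.45 CPM (log2 difference -9.86, standard error 0.44, adjusted p = 1.28e-08). CP, which encodes the plasma copper protein ceruloplasmin, had 183 and 361 counts against 5261 and 6125 (log2 difference -3.87, standard error 0.25). LZTS1, a leucine zipper tumor suppressor gene, had 29 and 80 counts against 3342 and 4170. The RNA-binding protein gene RBMS1 had 23 and 46 counts against 1485 and 1774. CHST2, a sulfotransferase of carbohydrate chains, had 0 and 2 counts against 337 and 553. In these genes both GFP libraries lay far above both SMARCB1 libraries, though non-overlap was again a condition for naming them. The other 8 of the 20 genes, 10 for each direction, with the smallest p belonged to the matrix, guidance and signalling lists and follow there.

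The genes were grouped by 31 lists in 5 functional classes, which hold 1393 gene IDs. Of these IDs 539 passed the filter on low counts and 101 were called, 56 higher and 45 lower in the SMARCB1 line. Without a DMSO library these calls numbered between 60 and 74, with 60 without GFP DMSO replicate 2 and 66 without GFP DMSO replicate 1. The 101 are 18.7% of the members tested, beside 4.97% of all genes tested. The lists were written with earlier results of these data known, so this contrast is not independent of the data. A gene that passed the filter through 1 line alone had to differ, so these shares describe the members measured and not all members. By class, 27 of 95 matrix genes tested were called (13 higher, 14 lower), 10 of 46 guidance genes (7 higher, 3 lower) and 12 of 48 adhesion genes (7 higher, 5 lower). Among signalling genes 27 of 178 were called (15 higher, 12 lower), and among transcription factors 25 of 172 (14 higher, 11 lower). No class went one way. The median log2 difference of the members tested was 0.29 for matrix, 0.46 for guidance, 0.07 for adhesion, 0.13 for signalling and 0.05 for transcription factors.

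**Figure D2:**
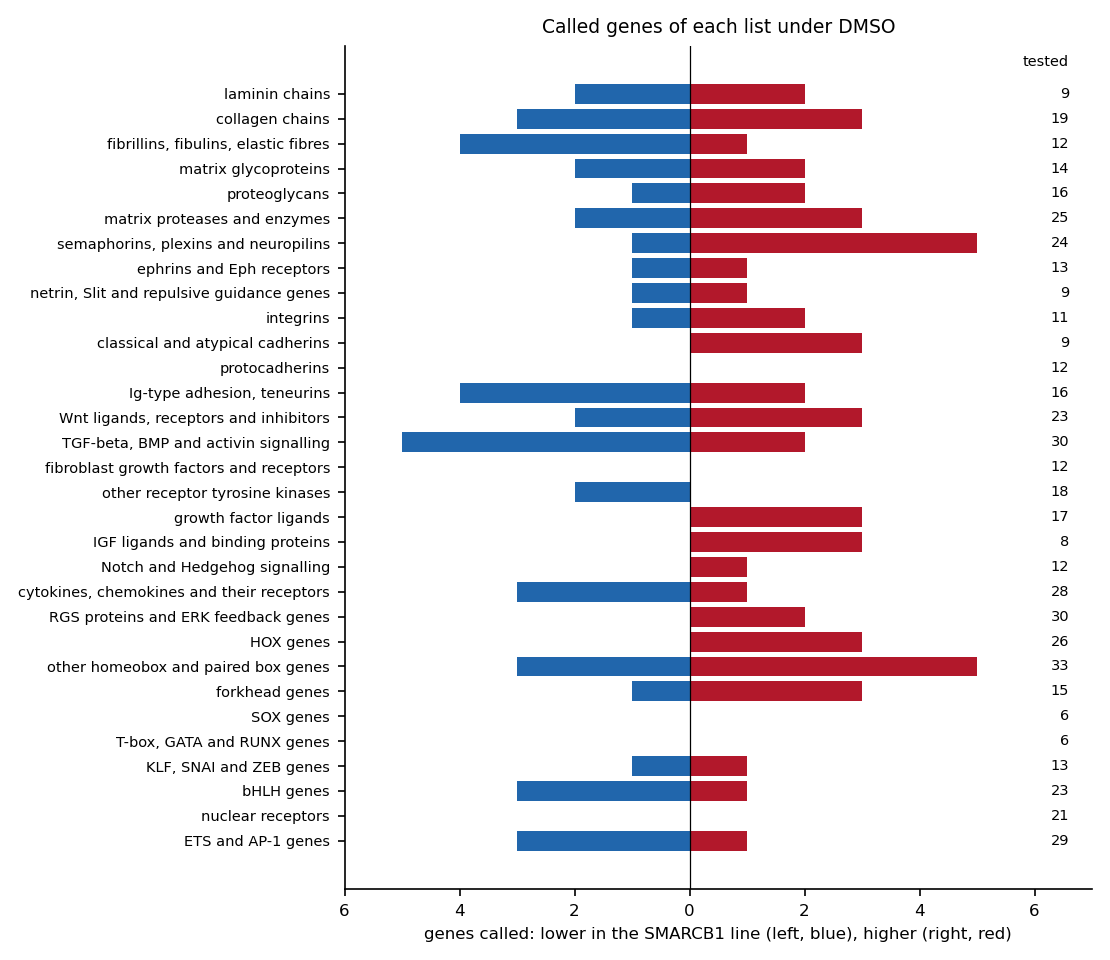
Number of genes called lower (blue bars, left) and higher (red bars, right) in the SMARCB1 line under DMSO for each of the 31 functional lists, with the number of members tested at the right. Most lists have calls in both directions, as for the 24 semaphorin, plexin and neuropilin genes with 5 higher and 1 lower, while 5 lists, among them the 12 protocadherins and the 21 nuclear receptors, have 0.

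Laminins are heterotrimers of an alpha, a beta and a gamma chain that form the scaffold of basement membranes. Of 12 laminin genes 9 were tested and 4 were called, 2 in each direction. LAMB1 (chromosome 7, 107923799 to 108003213), the beta 1 chain, had 1360 and 2638 counts in the SMARCB1 libraries and 4 and 10 in those of the GFP line, or 216 ± 15.1 CPM against 0.512 ± 0.258 CPM (SD, n = 2; log2 difference 8.65, standard error 0.41, adjusted p = 1.6e-08). LAMA4, the alpha 4 chain, went the other way with 58 and 122 counts against 3486 and 3846 (log2 difference -4.85, standard error 0.32, adjusted p = 3.08e-07). LAMC1, the gamma 1 chain that many trimers share, was high in both lines and was not called, with 2464 and 4966 counts against 8207 and 10171 (log2 difference -0.79, standard error 0.23, adjusted p = 0.0612). Per kilobase of coding sequence, the SMARCB1 line had 82.6 CPM on LAMC1, 35.3 on LAMB1 and 1.65 on LAMA4, and the GFP line had 143 CPM on LAMC1, 0.0837 on LAMB1 and 47.5 on LAMA4. Footprints of the gamma 1 chain were thus joined by those of a beta chain in one line and of an alpha chain in the other. LAMA1 had 8 and 20 counts against 0 and 1, giving a ratio of 39.5 with a 95% exact binomial interval of 6.53 to 1614 for counting error. LAMA1 lost its call without SMARCB1 DMSO replicate 1 or without either GFP library (adjusted p up to 0.491).

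Collagens are triple-helical matrix proteins, and the type IV chains form the network of basement membranes. Of 44 collagen genes 19 were tested and 6 were called, 3 in each direction. COL4A5 had 581 and 1257 counts in the SMARCB1 libraries and 0 and 12 in those of the GFP line (log2 difference 7.73, standard error 0.59, adjusted p = 9.83e-07). Its partner COL4A6 had 275 and 681 counts against 5 and 5 (log2 difference 6.99, standard error 0.42, adjusted p = 1.25e-07). The 2 genes lie head to head on chromosome X, COL4A5 on the plus strand from 108439838 to 108697545 and COL4A6 on the minus strand from 108155607 to 108439497, with 341 bases between their starts in GENCODE. They are shown because they share this promoter region and were both higher. The RefSeq windows of GRCh38.p14 that run from 250 bases before to 50 bases after each RefSeq start are chrX:108439588-108439887 on the plus strand for COL4A5 and chrX:108439409-108439708 on the minus strand for COL4A6, each printed 5′ to 3′ on its own strand. RefSeq has the same start for COL4A5 but sets that of COL4A6 at 108439458, which puts 380 bases between the starts of the windows. The capitals mark the 121 bases that both windows hold, chrX:108439588-108439708, which read as reverse complements of each other.
COL4A5: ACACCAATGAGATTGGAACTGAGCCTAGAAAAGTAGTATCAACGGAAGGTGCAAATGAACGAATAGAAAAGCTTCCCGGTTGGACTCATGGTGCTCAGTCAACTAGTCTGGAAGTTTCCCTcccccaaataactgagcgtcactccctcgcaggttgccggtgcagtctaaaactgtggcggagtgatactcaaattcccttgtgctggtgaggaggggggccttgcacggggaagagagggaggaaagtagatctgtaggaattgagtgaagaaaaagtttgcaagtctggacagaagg
COL4A6: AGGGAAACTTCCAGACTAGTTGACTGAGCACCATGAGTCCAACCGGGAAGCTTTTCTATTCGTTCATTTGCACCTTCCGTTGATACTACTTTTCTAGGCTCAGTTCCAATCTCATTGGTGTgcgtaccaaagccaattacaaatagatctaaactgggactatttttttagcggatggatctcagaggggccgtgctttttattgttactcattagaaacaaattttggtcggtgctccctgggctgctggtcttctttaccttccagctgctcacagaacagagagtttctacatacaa
The windows hold 8 and 7 CpG dinucleotides, against a median of 27 over the tested genes with a window.

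Of the fibril-forming collagens, COL5A2 was higher in the SMARCB1 line, at 1018 ± 12.3 CPM against 289 ± 72.3 CPM (SD, n = 2; log2 difference 1.82, standard error 0.27). COL1A1, the main chain of type I collagen, was lower, with 277 and 570 counts against 12179 and 20043 (log2 difference -4.72, standard error 0.31, adjusted p = 3e-07). COL9A1, a collagen of cartilage fibrils, had 3 and 21 counts against 1267 and 1699, and COL16A1 had 0 and 7 against 118 and 144. COL11A1, the uncalled collagen with the highest level per kilobase, did not differ measurably, at 6766 ± 602 CPM in the SMARCB1 libraries and 6793 ± 665 CPM in those of the GFP line (log2 difference -0.01, standard error 0.26). It changed sign, to 0.10 at most, when either replicate 2 library was left out.

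Fibrillins and latent TGF-beta binding proteins build the microfibrils of elastic tissue. Of 12 tested genes of this list 1 was higher and 4 were lower in the SMARCB1 line. FBN2 (chromosome 5, 128257909 to 128659185) had 1 and 0 counts in the SMARCB1 libraries and 1001 and 1171 in those of the GFP line, giving a ratio of 1540 in favor of the GFP line with a counting interval of 276 to 60869.6. LTBP2 had 262 and 783 counts against 2614 and 3812 (log2 difference -2.19, standard error 0.27). LTBP1 went the other way with a log2 difference of 1.09 (standard error 0.24), and FBN3 had 4 and 0 counts against 48 and 77. LTBP1 lost its call without SMARCB1 DMSO replicate 1 or without either GFP library (adjusted p up to 0.175). FBN3 lost it without SMARCB1 DMSO replicate 2 or either GFP library (up to 0.337).

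Among 14 tested matrix glycoproteins 2 were higher and 2 lower. SPARC, which binds collagen and calcium, had 12939 and 40796 counts in the SMARCB1 libraries and 3136 and 2787 in those of the GFP line, or 2667 ± 721 CPM against 226 ± 45.5 CPM (log2 difference 3.56, standard error 0.36, adjusted p = 1.35e-05). THBS1, thrombospondin 1, was at 552 ± 38.7 CPM against 113 ± 4.73 CPM. VTN, which encodes vitronectin, was lower with 16 and 24 counts against 176 and 203. NID1, which links laminin to type IV collagen, was not called (694 against 591 CPM, log2 difference 0.23, standard error 0.24). Of 16 proteoglycan-list genes tested, HAPLN1, a link protein of hyaluronan, had 223 and 460 counts against 25 and 12, and TGFBR3 had 281 and 459 against 91 and 125. HAPLN3 was lower (log2 difference -1.40), a call lost without SMARCB1 DMSO replicate 2 or GFP DMSO replicate 2 (adjusted p up to 0.118). Of 25 matrix proteases, inhibitors and crosslinking enzymes tested, 3 were higher and 2 lower. The protease ADAMTS9 had 770 and 814 counts against 22 and 7 (log2 difference 6.41, standard error 0.52), and the interstitial collagenase MMP1 had 122 and 505 against 50 and 36. The membrane-type MMP24 was lower, with 76 and 144 counts against 670 and 953 (log2 difference -2.35, standard error 0.32). LOXL2, a crosslinker of collagen, was high in both lines and was not called (1044 ± 121 CPM against 578 ± 71.9 CPM).

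Class 3 semaphorins are secreted guidance cues that act through neuropilin and plexin receptors. Of 24 tested semaphorins, plexins and neuropilins 5 were higher in the SMARCB1 line and 1 was lower. SEMA3A (chromosome 7, 83955777 to 84492724) had 3425 and 7264 counts in the SMARCB1 libraries and 105 and 91 in those of the GFP line, or 568 ± 3.74 CPM against 7.48 ± 1.64 CPM (SD, n = 2; log2 difference 6.25, standard error 0.34, adjusted p = 7.08e-08). SEMA3D had 421 and 963 counts against 31 and 30. SEMA3E, which was named after its values were seen, had 3984 and 5950 against 1065 and 1204 (log2 difference 2.72, standard error 0.30). The receptor NRP2 was higher as well, though at low levels, with 35 and 75 counts against 7 and 11 (log2 difference 3.09, standard error 0.52). SEMA3B was the exception, with 8 and 36 counts against 488 and 514 (log2 difference -4.09, standard error 0.37, adjusted p = 4.82e-06). SEMA3C did not differ measurably, at 543 ± 112 CPM against 399 ± 56.9 CPM (log2 difference 0.44, standard error 0.25). Ligands and a receptor of the class were therefore higher in the SMARCB1 line while one ligand was lower.

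Of 13 tested ephrins and Eph receptors 1 was called in each direction, and likewise of 9 netrin, Slit and repulsive guidance genes. The ligand EFNA5 had 77 and 180 counts in the SMARCB1 libraries and 59 and 74 in those of the GFP line, and the receptor EPHA5 had 0 and 0 against 24 and 13, at least 9.03-fold lower. Both lost their call without any 1 of the 4 libraries (adjusted p up to 0.273 and 0.317). NTN4, a laminin-related netrin, was higher at 242 ± 65.3 CPM against 65.8 ± 0.46 CPM (log2 difference 1.88, standard error 0.25). The netrin receptor gene UNC5B had 0 and 2 counts against 35 and 59, a call lost without either SMARCB1 library or GFP DMSO replicate 2 (adjusted p up to 0.0912).

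Integrins are the alpha and beta chain receptors by which cells hold the matrix, and 3 of 11 tested were called. ITGA6, a laminin receptor chain, had 863 and 1360 counts in the SMARCB1 libraries and 182 and 259 in those of the GFP line (log2 difference 2.92, standard error 0.26, adjusted p = 4.43e-06). ITGA4, which pairs with ITGB1 to bind fibronectin and VCAM1, had 14 and 29 counts against 0 and 0, at least 20.3-fold higher. It lost its call without any 1 of the 4 libraries (adjusted p up to 0.141). ITGB6, an epithelial chain that activates latent TGF-beta, had 0 counts in both SMARCB1 libraries and 173 and 242 in the GFP libraries, at least 97.4-fold lower. ITGB1, the common beta chain, did not differ measurably (1999.9 ± 457 CPM against 1597 ± 128 CPM). Of 9 tested cadherins 3 were higher, with the giant cadherin FAT3 at 30 and 32 counts against 0 and 0. FAT2 and CELSR1 were smaller differences (log2 2.25 and 1.05) that were lost without any 1 of the 4 libraries (adjusted p up to 0.497 and 0.391). Of 12 tested protocadherins 0 were called. Among 16 immunoglobulin-type adhesion molecules and teneurins 2 were higher and 4 lower. MCAM, a melanoma and endothelial adhesion molecule, had 6 and 6 counts against 383 and 490 (log2 difference -5.61, standard error 0.43, adjusted p = 1.01e-06). BCAM, a receptor for laminin alpha 5, was at 20.0 ± 0.00622 CPM against 60.5 ± 4.33 CPM.

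**Figure D3:**
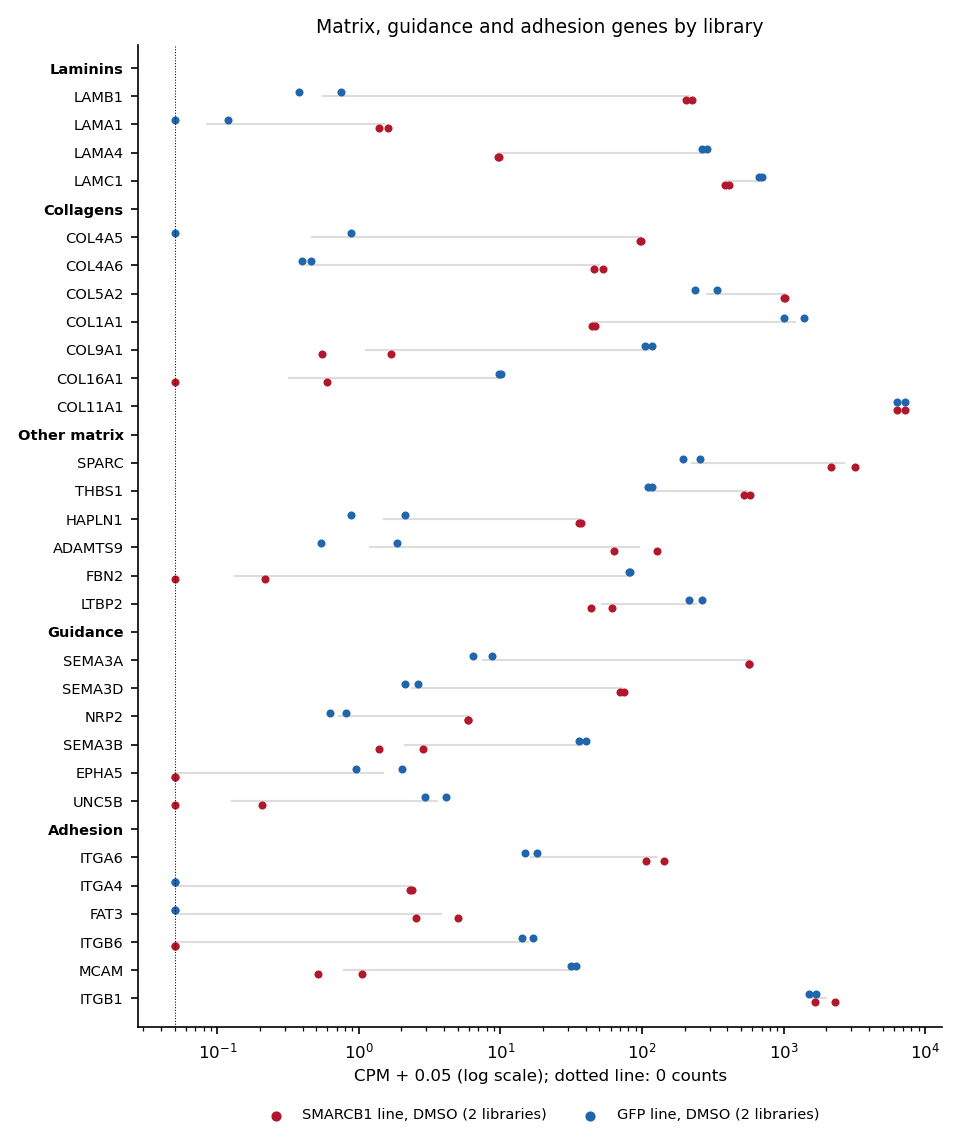
CPM plus 0.05 on a log scale (x axis) of matrix, guidance and adhesion genes (rows) in each SMARCB1 DMSO library (red) and GFP DMSO library (blue), with grey lines between the means of 2 libraries and a dotted line at 0 counts. The dots of a line lie close together next to the gap between the lines for COL4A6, SEMA3A or LAMA4, whereas those of COL11A1 and ITGB1, which were not called, coincide or overlap.

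Wnt proteins signal through Frizzled receptors, and secreted inhibitors hold them in check. Of 23 tested genes of this pathway 3 were higher and 2 lower. The inhibitor DKK1 (chromosome 10, 52314281 to 52318042) had 6 and 4 counts in the SMARCB1 libraries and 1738 and 1677 in those of the GFP line, or 0.656 ± 0.487 CPM against 130 ± 18.7 CPM (log2 difference -7.85, standard error 0.43, adjusted p = 7.08e-08). The ligand WNT11 was also lower, with 10 and 22 counts against 306 and 461 (log2 difference -4.07, standard error 0.38). LGR4, a receptor for R-spondins, was higher with 111 and 145 counts against 35 and 52 (log2 difference 2.17, standard error 0.35). WNT2B was higher at 214 ± 25.2 CPM against 97.6 ± 3.80 CPM, a call lost without either GFP library (adjusted p up to 0.150). WNT5A, the uncalled member of highest level per kilobase, was at 377 ± 1.28 CPM against 313 ± 34.2 CPM.

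Of 30 tested genes of TGF-beta, BMP and activin signalling 2 were higher and 5 lower. The ligand BMP7 (chromosome 20, 57168753 to 57266641), which acts in kidney development, had 0 counts in both SMARCB1 libraries and 309 and 417 in the GFP libraries, at least 171-fold lower. BMP4 was high in both lines and was not called (313 ± 18.9 CPM against 239 ± 5.45 CPM). The ligand TGFB1 had 65 and 73 counts against 238 and 454, a call lost without SMARCB1 DMSO replicate 2 or GFP DMSO replicate 2 (adjusted p up to 0.359). FSTL4, a follistatin-like gene, had 0 and 0 counts against 18 and 27, at least 10.5-fold lower, and lost its call without any 1 of the 4 libraries (adjusted p up to 0.307). FSTL1 was higher at 24.3 ± 2.76 CPM against 9.39 ± 2.93 CPM, a call lost without GFP DMSO replicate 1 or SMARCB1 DMSO replicate 2 (adjusted p up to 0.258).

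Among the receptor tyrosine kinases, 0 of 12 tested fibroblast growth factor ligands and receptors and 2 of 18 other receptors were called. PDGFRA, the alpha receptor of platelet-derived growth factor, had 1 and 7 counts in the SMARCB1 libraries and 578 and 661 in those of the GFP line (log2 difference -6.77, standard error 0.49, adjusted p = 5.67e-07). PTK7 was the uncalled receptor of highest level per kilobase (525 ± 33.9 CPM against 555 ± 71.7 CPM). All 3 called genes among 17 tested growth factor ligands were higher. NRG1, a ligand of ERBB receptors, had 320 and 490 counts against 144 and 128 (log2 difference 2.14, standard error 0.36). ANGPT1, a ligand of the receptor TEK, was at 153 ± 13.5 CPM against 52.9 ± 8.65 CPM, and lost its call without GFP DMSO replicate 2 (adjusted p = 0.0557).

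The IGF list, with 8 tested genes, had 3 higher and 0 lower. IGFBP7, a secreted binding protein, had 3125 and 8833 counts in the SMARCB1 libraries and 599 and 466 in those of the GFP line (log2 difference 3.89, standard error 0.35, adjusted p = 4.82e-06). PAPPA, the protease that cuts IGF binding proteins, had 61 and 125 counts against 0 and 0, at least 88.1-fold higher. IGFBP3 was at 210 ± 0.0457 CPM against 89.7 ± 1.17 CPM, although its call was lost without either GFP library (adjusted p up to 0.0799). In Notch and Hedgehog signalling 1 of 12 tested genes was called, the Notch ligand JAG1 with 9 and 44 counts against 0 and 0, and the call was lost without SMARCB1 DMSO replicate 2 or either GFP library (adjusted p up to 0.0951). SPRY2, a feedback inhibitor of ERK signalling, had 57 and 61 counts against 2 and 0, giving a ratio of 83.2 with a counting interval of 22.5 to 695. Of 28 tested cytokine and chemokine genes, IL6R was lower with 11 and 23 counts against 153 and 160 (log2 difference -2.70, standard error 0.42). IL32 was higher and CCL25 and LIFR were lower at counts of at most 91, and each lost its call without GFP DMSO replicate 1, among other libraries (adjusted p up to 0.123, 0.219 and 0.264).

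HOX genes record position along the body axis, and 26 of 39 were tested. The 3 that were called belong to the HOXB cluster and were higher in the SMARCB1 line. HOXB6 had 171 and 528 counts in the SMARCB1 libraries and 69 and 55 in those of the GFP line (log2 difference 2.88, standard error 0.37). HOXB8 had 153 and 330 against 50 and 46 (log2 difference 2.81, standard error 0.36), and HOXB9 had 112 and 262 against 26 and 54 (log2 difference 2.72, standard error 0.38). HOXC8, the uncalled member of highest level per kilobase, was at 56.7 ± 14.6 CPM against 30.9 ± 1.61 CPM. Of 33 other homeobox and paired box genes tested 5 were higher and 3 lower. SATB1, which organizes chromatin loops, had 27 and 46 counts against 0 and 1, giving a ratio of 103 with a counting interval of 17.9 to 4121. OTX2, a regulator of the anterior brain, was lower with 14 and 53 counts against 511 and 529 (log2 difference -3.54, standard error 0.34, adjusted p = 9.73e-06). DLX3 was lower with 4 and 16 counts against 215 and 271. PAX2, a regulator of the kidney lineage, had 0 and 11 counts against 48 and 107 (log2 difference -3.40, standard error 0.79), and lost its call without SMARCB1 DMSO replicate 1 or GFP DMSO replicate 2 (adjusted p up to 0.212).

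ETS1 was the transcription factor of smallest p among those higher in the SMARCB1 line, with 327 and 1174 counts against 63 and 96 (log2 difference 3.62, standard error 0.35, adjusted p = 9.73e-06). The forkhead gene FOXC2, which acts in mesenchyme and lymphatic vessels, had 67 and 165 counts against 7 and 30 (log2 difference 3.14, standard error 0.53). FOXD1, a gene of the kidney stroma, had 57 and 162 against 15 and 23 and missed the threshold without GFP DMSO replicate 1 (adjusted p = 0.0525). FOXO1 was lower at 3.50 ± 1.65 CPM against 16.8 ± 0.284 CPM and missed it without SMARCB1 DMSO replicate 1 (adjusted p = 0.0505). Of 23 tested bHLH and related genes 1 was higher and 3 lower. BHLHE40, a clock-linked repressor, had 122 and 172 counts against 1399 and 1851 (log2 difference -2.87, standard error 0.27, adjusted p = 7.84e-06). EBF3 had 0 and 0 counts against 100 and 134, at least 55.0-fold lower. KLF7 had 0 and 0 against 34 and 64, and lost its call without replicate 2 of either line (adjusted p up to 0.0912). The AP-1 gene FOS had 15 and 12 counts against 131 and 149, and lost its call without SMARCB1 DMSO replicate 2 (adjusted p = 0.0874). The lists of SOX genes (6 tested), T-box, GATA and RUNX genes (6) and nuclear receptors (21) had 0 calls.

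**Figure D4:**
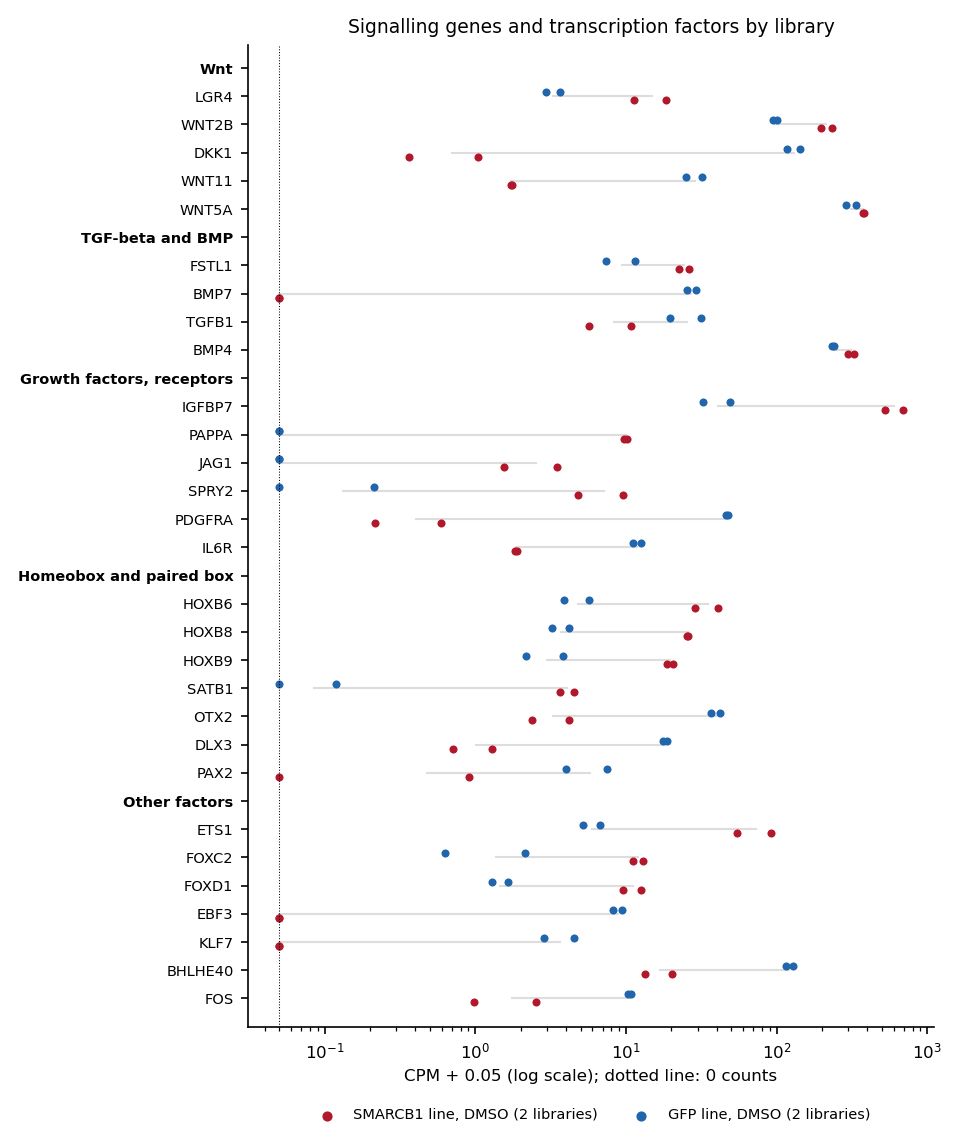
CPM plus 0.05 on a log scale (x axis) of signalling genes and transcription factors (rows) in each SMARCB1 DMSO library (red) and GFP DMSO library (blue), with grey lines between the means of 2 libraries and a dotted line at 0 counts. BMP7, EBF3 and KLF7 have both SMARCB1 libraries at 0 counts and PAPPA and JAG1 both GFP libraries, while WNT5A and BMP4 differ little.

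Outside these classes, 5 of 28 tested muscle genes were called, 4 higher and 1 lower, TNNC2. The median log2 difference of the 28 genes was 0.18. The skeletal muscle myosins MYH2 and MYH8 had 147 and 364, and 91 and 272 counts in the SMARCB1 line, and 2 and 1, and 0 and 0 counts in the GFP line. DMD, which encodes dystrophin, had 988 and 2765 against 244 and 363 (log2 difference 3.07, standard error 0.26). The muscle regulators MYOD1 and MYOG were at 0 in all 4 libraries. The 12 skeletal muscle cell markers summed to 20.0 and 26.9 CPM in the SMARCB1 libraries and 2.96 and 5.76 CPM in the GFP libraries. MYH8 alone made up 15.2 and 21.2 CPM of the SMARCB1 sums and 0 of the GFP sums. The part of other cells in these differences was not tested. Of 18 interferon-stimulated genes tested, IFITM2 alone was called, lower in the SMARCB1 line with 42 and 190 counts against 496 and 474, and lost its call without SMARCB1 DMSO replicate 1 or GFP DMSO replicate 1 or 2 (adjusted p up to 0.203). Among 14 keratins and other intermediate filaments tested, KRT80 was lower with 3 and 9 counts against 78 and 140. Of 27 mSWI/SNF subunits tested 1 was called, BCL11A with 68 and 173 counts against 43 and 46, a call lost without SMARCB1 DMSO replicate 2 or either GFP library (adjusted p up to 0.185). In edgeR's quasi-likelihood test 0 of 78 ribosomal protein genes, 0 of 32 proliferation genes and 0 of 9 cancer-testis antigens were called. Their log2 differences lay between -0.71 and 0.83, between -0.66 and 0.40 and between -1.29 and 1.02.

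In 20 genes the difference was close to presence against absence, with at most 3 counts in each library of one line and at least 10 CPM in each of the other. Without SMARCB1 DMSO replicate 2 the rule gave 33 genes. Of the 20, 6 were high in the SMARCB1 libraries and 14 in those of the GFP line. FRY, a scaffold of NDR kinases, had the highest level of the first group and was at least 453-fold higher, where the bound sets 3 counts over the pooled GFP libraries. MYH8 and IKZF2, a zinc-finger factor of lymphocytes, were at least 161-fold and 125-fold higher. DIAPH2, a formin, had 112 and 259 counts against 1 and 0, and the kinase gene CAMK1D had 108 and 234 against 1 and 0. In the second group, RIMS2, a protein of the presynaptic active zone, had 0 counts in both SMARCB1 libraries against 487 and 626 and was at least 262-fold lower. MGST1, a membrane glutathione transferase, was at least 201-fold lower with 465 and 370 counts in the GFP line. SLFN11, which sensitizes cells to DNA damage, had 2 and 0 counts against 542 and 627, which gives a ratio of 415 in favor of the GFP line and a counting interval of 114 to 3427. These limits and intervals cover counting error only.

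CpG-rich promoters belong mostly to broadly expressed genes, and CpG-poor ones are more often tissue-restricted. Of the 20 genes 17 had a RefSeq promoter window of 300 bases, and 11 of these (64.7%) were CpG-rich, with an observed over expected CpG ratio above 0.6, beside 86.2% of all tested genes with a window. Both ends of the range are shown, with each CG in capitals. CHST2 (chr3:143119521-143119820, plus strand) held the most CpG of the 17 windows, 51, and ITGB6 (chr2:160200223-160200522, minus strand) held 0.
CHST2: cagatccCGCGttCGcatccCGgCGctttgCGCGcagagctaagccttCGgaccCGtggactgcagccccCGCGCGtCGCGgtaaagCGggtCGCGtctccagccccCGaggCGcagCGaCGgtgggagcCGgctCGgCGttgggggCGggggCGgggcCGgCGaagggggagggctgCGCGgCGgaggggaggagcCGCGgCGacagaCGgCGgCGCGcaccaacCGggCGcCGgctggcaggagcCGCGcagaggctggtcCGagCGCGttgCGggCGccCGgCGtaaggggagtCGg
ITGB6: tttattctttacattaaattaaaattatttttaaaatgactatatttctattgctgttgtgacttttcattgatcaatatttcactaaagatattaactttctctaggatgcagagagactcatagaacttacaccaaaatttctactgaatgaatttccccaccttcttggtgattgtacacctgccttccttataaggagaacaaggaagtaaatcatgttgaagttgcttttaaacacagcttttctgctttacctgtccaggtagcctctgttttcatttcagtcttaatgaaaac
Genes near 0 in a line thus included both kinds of promoter. The same check over all 552 called genes was void, because 77.2% of them had a window.

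Some called genes lay next to each other. Among neighbouring tested genes there were 66 pairs with both members called, and in 57 of them both went the same way. For 10.3% of the called genes the next tested gene was called in the same direction, beside the 2.49% of all tested genes called in each direction. Most called genes had no such neighbour, since 103 of 552 had one on either side. The calls formed 46 runs of neighbours in 1 direction, 10 of them with 3 or 4 genes. The genes of these runs were chosen after their values were seen. The longest, PCLO, SEMA3E, SEMA3A and SEMA3D on chromosome 7 (82754012 to 85187056), was higher in the SMARCB1 line with log2 differences from 1.14 to 6.25. DLX1, DLX2 and ITGA6 on chromosome 2 were higher by 1.98 to 2.92. S100A6, S100A5 and S100A4 on chromosome 1 (153534599 to 153550136) formed a run that was lower. Of the 20 genes of smallest p, 7 lay in a run and 13 in none. LAMA4 lies next to RFPL4B on chromosome 6, and RBMS1 next to ITGB6 on chromosome 2, all lower. By chromosome, the share of tested genes that were called ran from 2.57% (chromosome 16) to 9.33% (chromosome 18, 14 of 150 genes, 11 of them higher), apart from the mitochondrial genome with 0 of 13.

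The Dox libraries of the same lines were not part of the contrast that called these genes. They did enter the filter on low counts, the scaling and the fit that estimated the spread. Between the lines under Dox 675 genes (6.08%) were called, and 419 of them had the same direction as under DMSO. In separate fits that each left out a library, the number of genes called between the lines under Dox was 348 without SMARCB1 Dox replicate 1, 379 without SMARCB1 Dox replicate 2, 565 without GFP Dox replicate 1 and 1372 without GFP Dox replicate 2. The shared calls make up 75.9% of the DMSO calls and 62.1% of the Dox calls, and 0 genes were called in opposite directions. Of the 552 genes 546 had the same sign under Dox, and the median absolute log2 difference of the 552 there was 2.42. The share of all genes tested with the same sign is not given here, so this count has no baseline. A direct test of whether the line difference changed with Dox gave 0 calls in edgeR's quasi-likelihood test, with 443 genes at an unadjusted p below 0.05 and 1 call by DESeq2. Without GFP Dox replicate 2 this test called 105 genes. LAMB1, with log2 differences of 8.65 under DMSO and 11.24 under Dox, RFPL4B (-9.86 and -12.97) and DKK1 (-7.85 and -8.54) are examples of genes that differed in both. The genes SLC39A8 and MCAM had few footprints in the SMARCB1 line under DMSO and more under Dox. SLC39A8, a zinc and manganese transporter, had 1 and 1 counts under DMSO and 36 and 11 under Dox, and MCAM had 6 and 6 and then 53 and 22, and both were called lower than in the GFP line under Dox as well.

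**Figure D5:**
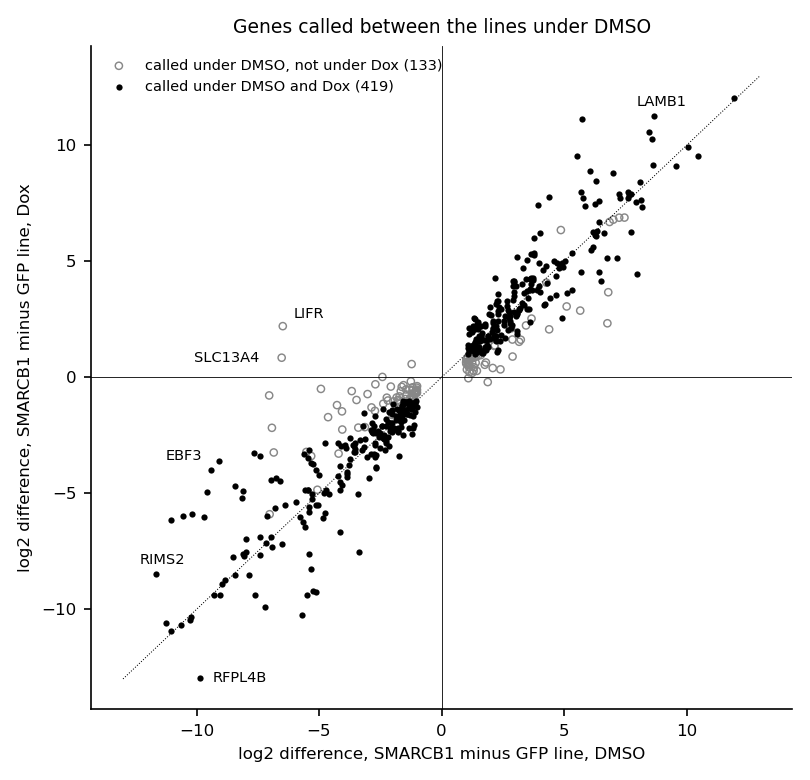
Log2 difference between the SMARCB1 and GFP lines under DMSO (x axis) and under Dox (y axis) for the 552 genes called under DMSO, with a dotted line at equal differences. Filled points are the 419 genes called under both and open circles the other 133, and LIFR and SLC13A4 are among the 6 genes whose sign was opposite; fitted differences of genes at 0 counts in a line depend on the small count the fit adds.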

How the data were processed

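Ribosome-protected fragments were sequenced from derivatives of G401, a human rhabdoid tumor line, with 2 replicates for each line and treatment. The authors pooled plates before each library, enriched active ribosomes, aligned reads to hg38 with STAR and counted those on coding sequences (CDS) with HTSeq in its intersection-strict mode (GENCODE 42); the deposited values are these raw counts per gene. Reads with more than 1 alignment were not counted, so near-identical gene copies can be underestimated, and the strand setting of the counting is not given in the sources used here.

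The 5 rows per file that name no gene were dropped. Of 20719 gene IDs, 311 had no match in GENCODE 44, which gave the symbols, and 6396 had 0 counts in every library. Total counts per library ranged from 5924443 to 14000039. Genes were filtered with filterByExpr, scaled by TMM and tested with edgeR 4.0.16 in R 4.3.3 (quasi-likelihood F-test over all 8 libraries, with 1 term per group; limma 3.58.1), and p-values were adjusted by Benjamini-Hochberg over the 11097 genes tested. Genes were called at an adjusted p below 0.05 and a fold above 2. The standard error is the absolute log2 difference divided by the square root of F. Adjusted p-values without a library come from the same fit with that library left out. Bounds for genes at 0 use 3 counts over both libraries of a line, and ratios for 1 to 3 counts carry exact binomial 95% intervals. All of these cover counting error only.

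Named by rule were SMARCB1, the 10 called genes of smallest p in each direction, the up to 3 called members of largest difference in each direction and the uncalled member of highest CPM per kilobase in each functional list, up to 3 called members of smallest p in each other list, and the 5 highest near-0 genes in each direction. For the 10 genes of smallest p in each direction, the 2 libraries of one line had to lie beyond those of the other. Other genes were chosen after their values were seen. A few genes that the rule names are not reported here. The gene lists and members were chosen with earlier results of these data known. On simulated counts for the DMSO comparison (10948 genes), the test recovered 20% of 2-fold and 84% of 4-fold changes, with 7 wrong calls. These counts were drawn independently with the fitted spread of each gene. Effects that a library shares over many genes were not simulated, so the wrong calls do not measure them. Alternatives covered scaling, filters, thresholds, DESeq2 1.42.0, a replicate block, thinning and leaving out each library. Promoter windows are from RefSeq (GRCh38.p14).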

Additional observations from a re-analysis of the deposited data

Results flagged for a closer look

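In 4 of the 552 genes called under DMSO, both libraries of the SMARCB1 line lay on one side of the GFP libraries under DMSO and on the other side under Dox. The change of the line difference (Dox minus DMSO, log2) was tested by the interaction term of edgeR's quasi-likelihood test, and none of the 4 passed the adjustment over all genes. VSTM2L had 679 and 1318 counts in SMARCB1 DMSO, 615 and 729 in GFP DMSO, 653 and 349 in SMARCB1 Dox and 347 and 376 in GFP Dox, a change of -1.13 (adjusted p = 0.981). LIFR, a cytokine receptor, had 0 and 0, then 19 and 11, then 40 and 20, then 3 and 6 counts in the same order, with a fitted change of 8.68 (adjusted p = 0.977). TGFBR1, a receptor kinase of TGF-beta, had 47 and 86, then 221 and 224, then 248 and 133, then 99 and 80 counts, a change of 1.79 (adjusted p = 0.977). SLC13A4, a sulfate transporter, had 0 and 0, then 12 and 20, then 15 and 6, then 2 and 6 counts, with a fitted change of 7.37 (adjusted p = 0.981). The fitted values of LIFR and SLC13A4 depend on the small count that the fit adds to the SMARCB1 DMSO libraries, which had 0 counts. Under Dox none of the 4 was called between the lines. VSTM2L was nearly equal there, at 54.6 and 55.3 CPM in the SMARCB1 line and 57.4 and 55.6 CPM in the GFP line (log2 difference -0.04).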

How the results depend on the processing

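The 552 genes called between the lines under DMSO became 288 with at least 10 counts required in every library, 308 when tested against a 2-fold change and 358 at a fold above 4, and ranged from 299 to 438 when a library was left out. The 675 genes called between the lines under Dox became 377, 315 and 395, and ranged from 348 to 1372 (without GFP Dox replicate 2). With scaling by library size alone the Dox calls were 362 higher and 251 lower. The 0 calls for the change of the line difference became 15 without a filter and 1 with DESeq2, and ranged from 0 to 105. The 101 calls in the functional lists became 48 with the count filter and 64 against a 2-fold change, and ranged from 60 to 74. The 20 genes near 0 became 41 when 10 counts were allowed, 129 at 1 CPM and 30 after thinning, and ranged from 22 to 33. The causes were not tested. Of 116 named genes that were called, 66 were called in every setting that gave them a value, and 0 changed sign. Genes with fewer than 10 counts in a library, such as LAMB1, RFPL4B and FBN2, have no value under the count filter. These 3 genes had a value in 14 of the 15 settings.

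Of the named genes not called, 7 changed sign. The log2 difference of PCDHB2 under DMSO was -0.0326 by library size alone and -0.17 after thinning. Without a library, the log2 differences ranged from -0.0598 to 0.13 for PCDHB2, from -0.10 to 0.10 for COL11A1, from -0.0431 to 0.31 for SLIT3, from -0.0239 to 0.69 for FAT1, from -0.0715 to 0.39 for FGF2, from -0.21 to 0.0577 for PTK7 and from -0.96 to 0.0062 for MEOX1.

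With the replicate number as a block, 603 genes were called under DMSO, 734 under Dox, 0 for the change and 109 in the lists. Deviations of same-numbered libraries correlated at 0.047 to 0.363, positive in all 6 group pairs and below 0.1 in 1 of them. The main fit did not pair the samples by number, and whether same-numbered libraries share an effect was not tested. Depth limits the counts near 0, and SMARCB1 DMSO replicate 1 was the shallowest library with 5924443 counts.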

Other observations

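The genes below were chosen after their values were seen, and no explanation is offered for them. GAD1, which makes the inhibitory transmitter GABA, had 1 and 5 counts in the SMARCB1 line under DMSO against 215 and 196 in the GFP line. The receptor subunit gene GABRA5 was at least 132-fold lower, and GLUL, which makes glutamine, had 0 and 2 counts against 99 and 204. Among S100 calcium-binding protein genes, S100A6 had 0 and 5 counts against 560 and 862 and S100A4 had 9 and 36 against 990 and 1422. S100A16, S100A5 and S100A1 were also called lower, whereas S100A10 alone was called higher, with 281 and 825 counts against 39 and 45.

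The glutathione transferases GSTM4 (log2 difference -3.15) and GSTM2 (-2.50) were lower, and the secreted peroxidase GPX3 was at least 122-fold lower. TXNIP, an inhibitor of thioredoxin, had 84 and 285 counts against 3 and 5, and the quinone reductase NQO1 was higher by 1.19 on the log2 scale. The glucose transporter genes SLC2A1 and SLC2A3 were called in opposite directions, SLC2A1 with 994 and 2636 counts against 7440 and 9482, and SLC2A3 with 2823 and 4172 against 863 and 866.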
